A study of Mus musculus with 22 samples.

Results

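Neat1 and Malat1 are neighbouring long non-coding RNAs that stay in the nucleus. They were followed as 2 of the 55011 gene symbols in an RNA-seq count table of regulatory T cells (Tregs) from mouse visceral adipose tissue. Neat1 was chosen by its values: it had the smallest p of all 11698 genes tested for 4 weeks of high fat diet against lean diet in Bmal1 KO cells, and Malat1 was taken with it as the other nuclear long non-coding RNA of the same locus. Both passed the filter on low counts. The 22 libraries were each made from 1000 Foxp3-YFP+ cells sorted in 2 rounds at ZT0, when lights came on, from male C57BL/6 mice of a strain labelled Foxp3.Cre-YFP, which carries Cre and YFP with the Treg gene Foxp3. That allele is listed for WT and KO alike. Cells were labelled Bmal1 WT or Bmal1 KO, Bmal1 (Arntl) coding for the transcription factor that pairs with CLOCK at the core of the circadian clock. How Bmal1 was deleted, and which part of it, is not given in the sources used here.

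There were 8 groups. On lean diet the mice were 18 weeks old, with 3 WT and 3 KO libraries. After 4 weeks of high fat diet they were also 18 weeks old, and after 16 weeks of high fat diet they were 30 weeks old, both following 14 weeks on lean diet, again with 3 WT and 3 KO libraries each. The transfer groups held 2 WT and 2 KO libraries of Tregs sorted 9 weeks after adoptive transfer, when the mice were 20 weeks old, and the host's own cells are not described in the sources used here. Age and length of high fat diet cannot be told apart at 16 weeks. The labels do not tie replicates to separate animals, so every p rests on the spread between libraries, which may be technical.

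NEAT1 RNA is the scaffold of paraspeckles, small nuclear bodies that form around its long isoform together with the proteins SFPQ, NONO and PSPC1. A short, polyadenylated isoform starts at the same promoter and does not build paraspeckles on its own. MALAT1 RNA lies in nuclear speckles, where splicing factors of the SR family are stored, and is among the most abundant long non-coding RNAs of most mammalian cells. Both long RNAs end without a poly(A) tail. RNase P cuts them upstream of a tRNA-like fold, and the new end is protected by a triple helix between U-rich stretches and an encoded A-rich stretch. NEAT1 is known to be induced by p53, by hypoxia factors and by several stress and immune signals.

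In GENCODE mouse release M21 (GRCm38, the build called mm10) both genes lie on the minus strand of chromosome 19, with 22035 bases between them, and both are annotated as lincRNA. Malat1 (ENSMUSG00000092341.3) spans chr19:5795690-5802672, and its main transcript, Malat1-201, is a single exon of 6983 bases. Neat1 (ENSMUSG00000092274.3) spans chr19:5824708-5845478. Its long transcript, Neat1-201, is 1 exon of 20771 bases, and the short transcript Neat1-202 has 2 exons and 3004 bases. The small annotated genes that overlap the pair, 2 in Malat1 (Gm27694 and, on the opposite strand, Gm37376) and 3 in Neat1 (Gm27533, Gm27505 and Gm28006), had 0 counts in every library.

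The 3′ ends of the long transcripts are shown because the libraries were primed with oligo(dT), and these RNAs carry an encoded A-rich stretch at the end instead of a tail. Capitals mark a U-rich stretch and the A-rich stretch that pairs with it, in DNA letters. The Malat1 segment is chr19:5795982-5796057, 76 bases long, and it stops 292 bases before the annotated end of the transcript. The Neat1 segment is chr19:5824708-5824790, 83 bases long, and it stops at the annotated end. Both are read on the minus strand, 5′ to 3′.
Malat1-201: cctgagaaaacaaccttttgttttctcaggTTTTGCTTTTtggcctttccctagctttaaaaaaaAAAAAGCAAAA
Neat1-201: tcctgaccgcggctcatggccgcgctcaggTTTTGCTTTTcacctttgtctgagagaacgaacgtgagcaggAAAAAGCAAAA
The same letters, TTTTGCTTTT followed within 60 bases by AAAAAGCAAAA on the transcript's own strand, were found in 4 of 141767 GENCODE transcripts: Malat1-201, Neat1-201 and 2 transcripts of Retreg3. The A-rich stretch occurred once in each of the 2 long RNAs.

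The next 60 bases of Malat1-201, chr19:5795922-5795981, hold the start of the tRNA-like RNA that is cut away. The last 60 bases of Neat1-202, chr19:5842307-5842366, are shown beside them because this short isoform has a true poly(A) tail. Capitals there mark the polyadenylation signal AATAAA, which stops 14 bases before the end.
Malat1-201 after the cut: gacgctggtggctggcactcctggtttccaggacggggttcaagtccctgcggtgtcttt
Neat1-202 end: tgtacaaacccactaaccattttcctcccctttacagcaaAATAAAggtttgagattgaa
The table gives 1 count per gene, so the long and short Neat1 isoforms are summed in every value that follows, and which of them changed was not tested.

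Each of the 18 diet libraries held 1955940 to 3467019 counts, and each of the 4 transfer libraries 4814337 to 5990319. The sorted cells carried Treg transcripts: Foxp3 group means ran from 484 to 656 CPM (counts relative to the total of each library, with TMM factors over all 22 libraries). Arntl group means ran from 69.0 to 96.4 CPM, and since the deleted part is not given, this checks nothing about the labels. The Bmal1 target Nr1d1 was lower in KO than in WT on lean diet, with a log2 fold change of -3.98 ± 0.49 (SE, edgeR quasi-likelihood adjusted p = 0.000354). Markers of other cells were low in some lists and uneven in others: B cell markers summed to at most 30.4 CPM and macrophage markers to at most 16.9 CPM in a library. Cytotoxic T and NK cell markers reached 707 CPM in WT replicate 3 after 16 weeks of high fat diet, against 45.8 CPM in the lowest library, with Cd8a, Klrb1c and Ncr1 under 1 CPM on average. In KO at 16 weeks several marker sums were higher than in lean KO. Endothelial markers summed to 156 ± 39.6 CPM against 55.7 ± 17.6, and class II and dendritic cell markers to 133 ± 32.9 against 51.1 ± 43.4 (SD, n = 3). In these lists the endothelial marker Cdh5 and the dendritic cell markers Flt3 and Itgax were under 1 CPM on average. Not every sum was higher: cytotoxic T and NK cell markers stood at 139 ± 10.8 CPM against 248 ± 72.0. Adipocyte markers summed to 24.6 ± 24.5 against 3.10 ± 0.95, with Adipoq, Plin1 and Cidec under 1 CPM on average. Stromal markers reached 105 CPM in 1 library of that group, whose median was 3.56 CPM. In bulk samples such as these, fewer cells of a type and less RNA per cell cannot be told apart.

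Malat1 was the more abundant RNA in every library. Its group means ranked between place 22 and place 38 of all genes by CPM, and those of Neat1 between place 126 and place 481. Per kilobase the distance depends on the isoform that is assumed. Malat1 had between 238 and 424 CPM per kb in the group means, and Neat1 between 15.3 and 41.2 CPM per kb over the long transcript, or between 106 and 285 CPM per kb over the short one.

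Neat1 was highest in Bmal1 KO Tregs on lean diet and after transfer, and lowest after 16 weeks of high fat diet. On lean diet the WT libraries stood at 559, 496 and 506 CPM, and the KO libraries at 930, 892 and 744 CPM. Every KO library was above every WT library there. At 4 weeks of high fat the WT libraries had Neat1 at 456, 489 and 409 CPM and the KO libraries at 507, 444 and 456 CPM, so the genotypes overlapped. At 16 weeks the WT libraries stood at 302, 322 and 498 CPM, and the KO libraries at 293, 329 and 331 CPM. WT replicate 3 stood above the other 5 libraries of that diet. In the transfer groups, Neat1 was at 784 and 864 CPM in WT and at 763 and 909 CPM in KO.

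By group mean, the order for Neat1 was lean KO (855 ± 98.4 CPM, SD, n = 3), transfer KO (836 ± 103, n = 2), transfer WT (824 ± 56.2, n = 2) and lean WT (520 ± 34.05, n = 3). Below these came 4-week KO (469 ± 33.6), 4-week WT (451 ± 40.4), 16-week WT (374 ± 108) and 16-week KO (318 ± 21.1, SD, n = 3 each). Neighbours in this order overlapped in their libraries except at a single step, from transfer WT down to lean WT. The transfer libraries come from a separate experiment with a greater depth, so levels across that step are given side by side without a test.

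Malat1 spanned a narrower relative range. On lean diet Malat1 stood at 1599, 2097 and 1723 CPM in the WT libraries and at 2060, 2155 and 2167 CPM in the KO libraries. With 4 weeks of high fat its values were 1443, 1704 and 1870 CPM in WT and 1596, 1804 and 1811 CPM in KO. With 16 weeks they were 2159, 1832 and 2277 CPM in WT and 1911, 1560 and 1507 CPM in KO. WT and KO libraries overlapped on each of the 3 diets, although 2 of the 3 KO libraries lay below every WT library at 16 weeks. The 4 transfer libraries were the highest, with 2657 and 2787 CPM in WT and 2734 and 3183 CPM in KO.

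The group means of Malat1 ran from transfer KO (2958 ± 318 CPM, SD, n = 2) and transfer WT (2722 ± 91.6) to lean KO (2127 ± 58.9, n = 3), 16-week WT (2089 ± 231) and lean WT (1806 ± 260). The lowest were 4-week KO (1737 ± 122), 4-week WT (1673 ± 215) and 16-week KO (1659 ± 220). As for Neat1, neighbours overlapped everywhere but at the step from the transfer groups to the diet groups. The top diet group was the same for both RNAs, lean KO, and so was the lowest, 16-week KO.

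**Figure D1:**
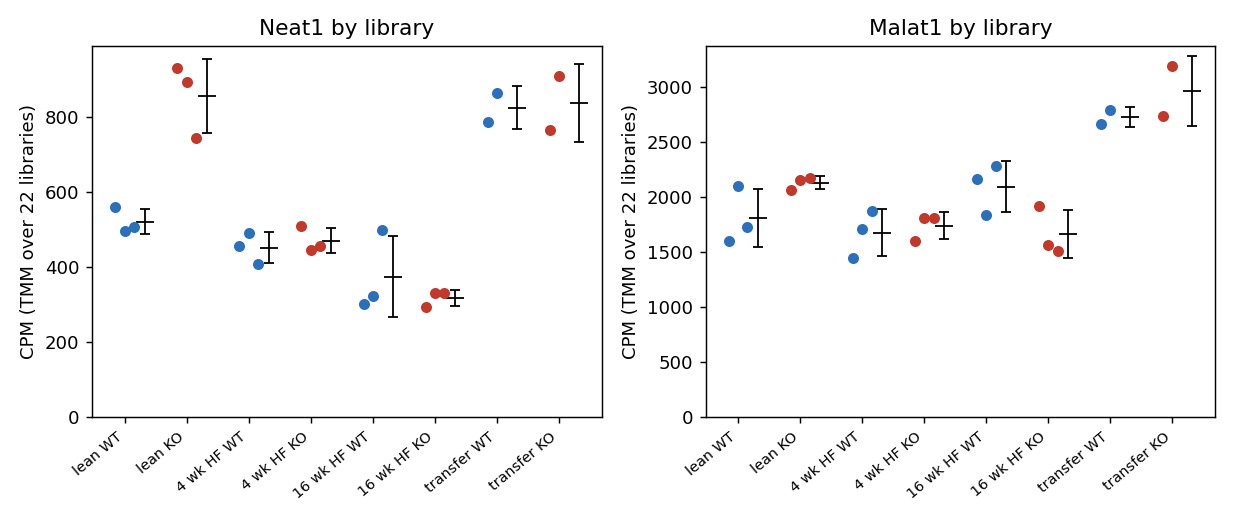
Neat1 (left) and Malat1 (right) in CPM with TMM scaling over 22 libraries, 1 point per library (WT blue, KO red), with the group mean and SD as black bars; HF is high fat diet and wk is weeks. The lean KO libraries of Neat1 lie at 744 to 930 CPM, above all other diet libraries, while Malat1 spans 1443 to 2277 CPM over the diet libraries.

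In KO Tregs, Neat1 was 1.83-fold lower after 4 weeks of high fat diet than on lean diet, a log2 fold change of -0.87 ± 0.15 (SE, 3 against 3 libraries). This is the contrast that chose Neat1, so it is given as a description with no p. The groups did not overlap, which held downwards for 6.52% of all genes tested. The next genes by p in the same contrast were Jun (-1.22 ± 0.23), a subunit of the AP-1 transcription factor, and Cd69 (-0.79 ± 0.16), an early activation marker. No gene passed an adjusted p of 0.05 there, which is 0% of 11698, although 836 had an unadjusted p under 0.05 and DESeq2 called 21. Malat1 had a log2 fold change of -0.30 ± 0.12 in that contrast, also with no overlap between the groups.

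In KO, Neat1 was lower still after 16 weeks of high fat diet. Against lean diet it was 2.705-fold lower, a log2 fold change of -1.44 ± 0.15, and against 4 weeks it stood at -0.57 ± 0.15. Both hold libraries of the contrast that chose Neat1, so they carry no test. The 16-week libraries lay below all lean libraries and below all 4-week libraries. Over all genes, 12.5% were lower without overlap against lean diet and 9.83% against 4 weeks. The summed markers of adipose tissue Tregs (Il1rl1, Pparg, Gata3, Klrg1, Il10 and Ccr2) were also lowest in this group. They stood at 5568 ± 311 CPM in lean KO, 5147 ± 355 in 4-week KO and 2336 ± 340 in 16-week KO, against 4141 ± 1218, 4022 ± 846 and 3631 ± 1477 in WT (SD, n = 3 each). After transfer they were at 8237 ± 40.9 in WT and 8048 ± 228 in KO (n = 2). The part of these cells, and of the endothelial, class II, adipocyte and stromal markers, in the Neat1 values was not tested.

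Malat1 in KO was tested on the same steps and did not pass the threshold. At 16 weeks against lean diet its log2 fold change was -0.37 ± 0.12, with an edgeR adjusted p of 0.0831 and a 95% interval from -0.62 to -0.11. All 3 KO libraries at 16 weeks were below all 3 on lean diet, which held for 12.5% of all genes tested. That comparison called 5.95% of all genes, 696 in all. The adjusted p ran from 0.0108 to 0.266 over the alternatives, and it passed the threshold without the filter on low counts, with only these groups in the fit, and without 16-week KO replicate 1 (adjusted p of 0.0473). At 16 against 4 weeks, where 1.64% of all genes were called, Malat1 differed by -0.07 ± 0.12 (edgeR adjusted p = 0.867), with an interval from -0.32 to 0.18.

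In WT Tregs every step of the diet could be tested, and neither RNA passed. The diet libraries shared a single estimate of the spread. Each Neat1 p of that fit therefore also draws on the KO libraries that chose Neat1. At 4 weeks Neat1 had a log2 fold change of -0.21 ± 0.15 against lean diet (edgeR adjusted p = 0.935, interval from -0.52 to 0.09), although all 3 libraries lay below all 3 on lean diet. A downward shift with no overlap held for 5.16% of genes there. Malat1 differed by -0.12 ± 0.12 (edgeR adjusted p = 0.975). This comparison called 0% of genes, with 654 at an unadjusted p under 0.05, and DESeq2 called 0.

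At 16 weeks against lean diet in WT, Neat1 had a log2 fold change of -0.48 ± 0.15 and Malat1 of 0.21 ± 0.12. The Neat1 interval ran from -0.79 to -0.17, its unadjusted p was 0.00417 and its edgeR adjusted p was 0.255, so it did not pass. Of the 3 WT libraries at 16 weeks, 2 lay below all lean WT libraries, and replicate 3 lay inside their range. Without that replicate the Neat1 value was -0.74 with an adjusted p of 0.0257, and this is also the library with 707 CPM of cytotoxic cell markers, whose part in the result was not tested. Malat1 had an adjusted p of 0.661. This comparison called 0.0855% of genes, 10 in number.

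At 16 against 4 weeks in WT, Neat1 and Malat1 stood on opposite sides of 0, with log2 fold changes of -0.26 ± 0.15 and 0.33 ± 0.12. Neither passed (edgeR adjusted p of 0.715 and 0.541). Again 0% of genes were called, with 884 at an unadjusted p under 0.05 and 27 called by DESeq2.

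KO was set against WT within each diet to ask how the loss of Bmal1 bears on each RNA. On lean diet Neat1 was 1.65-fold higher in KO, a log2 fold change of 0.72 ± 0.15, given as a description since the lean KO libraries took part in choosing it. The groups did not overlap, and 6.81% of all genes were higher in KO in that way. Malat1 differed by 0.24 ± 0.12 (edgeR adjusted p = 0.733, interval from -0.02 to 0.49), in a comparison that called 0.0427% of genes. After 4 weeks of high fat diet Neat1 differed by 0.06 ± 0.15, with no test, and Malat1 also by 0.06 ± 0.12 (edgeR adjusted p = 0.999). There 0.0684% of genes were called.

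At 16 weeks both RNAs had lower values in KO than in WT, and neither difference passed. The log2 fold change of Neat1 was -0.24 ± 0.15 (edgeR adjusted p = 0.705), and without WT replicate 3 it was 0.03 (adjusted p = 0.979). For Malat1 it was -0.33 ± 0.12, with an unadjusted p of 0.0125, an adjusted p of 0.376 and an interval from -0.59 to -0.08. This comparison called 5 genes, again 0.0427%.

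Averaged over the 3 diets, KO against WT gave 0.18 ± 0.09 for Neat1, without a test since it holds libraries that chose it, and -0.01 ± 0.07 for Malat1 (edgeR adjusted p = 0.987). The average called 0.18% of genes. The diet effect in KO minus that in WT, as a log2 value, was -0.66 ± 0.21 for Neat1 at 4 weeks and -0.96 ± 0.21 at 16 weeks, and -0.17 ± 0.17 and -0.57 ± 0.17 for Malat1. These are descriptions. Both interaction fits called 0% of genes, with 534 and 993 genes at an unadjusted p under 0.05, and with 0 and 26 called by DESeq2.

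After transfer neither RNA differed between KO and WT beyond the spread of the libraries. Neat1 differed by 0.01 ± 0.11 (edgeR adjusted p = 0.996, interval from -0.25 to 0.26) and Malat1 by 0.11 ± 0.09 (adjusted p = 0.934, interval from -0.10 to 0.31). The transfer comparison called 0.171% of 11715 genes. Of the comparisons that could be tested, 5 for Neat1 and 10 for Malat1, none passed the adjusted threshold with edgeR or with DESeq2. By edgeR, 1 of the Neat1 tests and 3 of the Malat1 tests had an unadjusted p under 0.05.

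**Figure D2:**
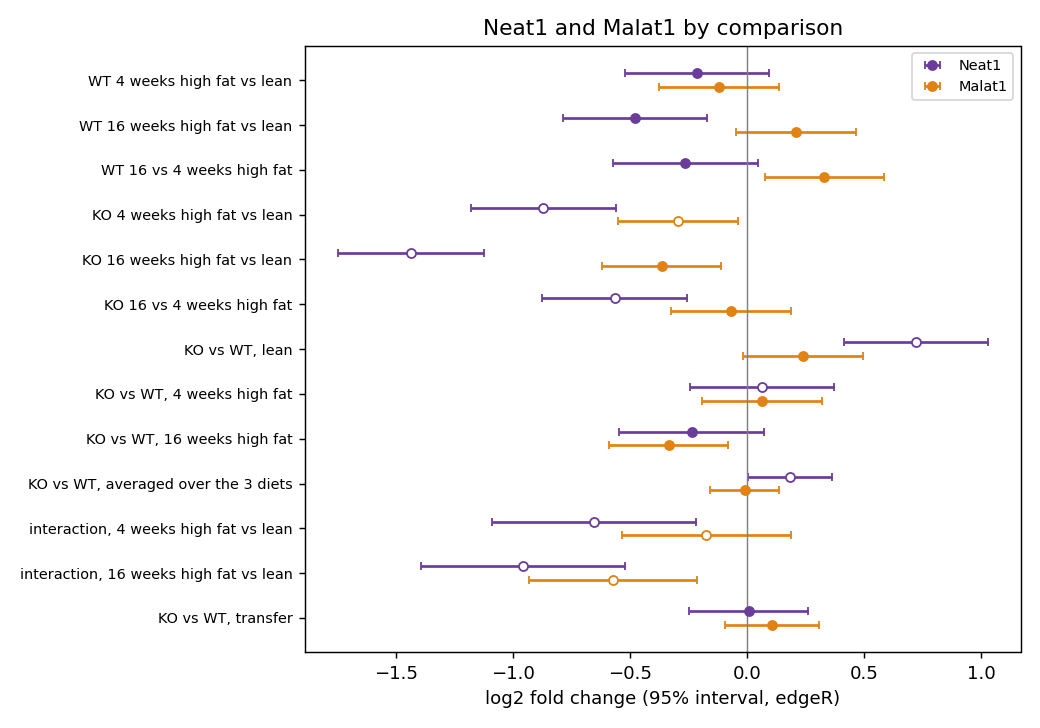
Log2 fold changes of Neat1 (purple) and Malat1 (orange) with 95% intervals from edgeR for each comparison. Filled points were tested and open points are descriptions. Open Neat1 points share libraries with the contrast that chose Neat1, and open Malat1 points are that contrast and the interactions. Neat1 lies at -0.87 and -1.44 for high fat against lean diet in KO, against -0.21 and -0.48 in WT.

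The ratio of Neat1 to Malat1 counts within a library does not depend on library size. It was 0.293 ± 0.0567 (SD, n = 3) in lean WT and 0.403 ± 0.0550 in lean KO, 0.274 ± 0.0499 and 0.272 ± 0.0399 at 4 weeks, and 0.178 ± 0.0394 and 0.195 ± 0.0359 at 16 weeks. After transfer it was 0.303 ± 0.0104 in WT and 0.282 ± 0.00447 in KO (SD, n = 2). In WT all 3 libraries at 16 weeks, at 0.140, 0.176 and 0.219, lay below all 3 lean libraries, at 0.350, 0.237 and 0.294. The difference in log2 ratio was -0.72, with p = 0.1 in a two-sided exact permutation test, the smallest p that 3 against 3 libraries allow. Against 4 weeks it was -0.63 with the same exact p of 0.1, although the lowest 4-week library (0.2188) only just exceeded the highest 16-week library (0.2187).

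KO was set against WT in the same ratio. At 16 weeks the libraries overlapped, and the log2 ratio was higher in KO by 0.13 (two-sided exact permutation p = 0.6). After transfer both KO libraries (0.279 and 0.286) lay below both WT libraries (0.295 and 0.310), a log2 difference of -0.10 with an exact p of 0.333, the smallest that 2 against 2 libraries allow. Averaged over the 3 diets the log2 ratio was higher in KO by 0.20, given as a description since it holds libraries that chose Neat1. At 4 weeks against lean diet in WT it differed by -0.10 (exact p = 0.6). No exact test of this ratio with 3 against 3 or 2 against 2 libraries could reach 0.05, so these p values do not show that groups are alike.

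**Figure D3:**
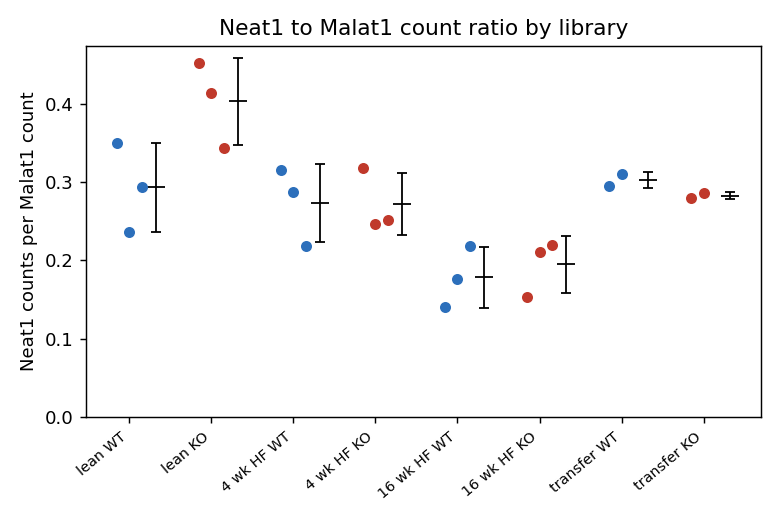
Neat1 counts per Malat1 count, 1 point per library (WT blue, KO red), with the group mean and SD as black bars. The 16-week libraries of both genotypes lie between 0.140 and 0.220, and the lean KO libraries between 0.344 and 0.452.

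The RNAs did not track each other closely from library to library. Over the 18 diet libraries the log2 CPM of Neat1 and Malat1 had a Pearson r of 0.34 and a Spearman rho of 0.20. These correlations are descriptions with no p, since they hold libraries that chose Neat1. Leaving out the 2 libraries farthest from the median of Neat1 gave r = 0.13. For deviations from the group means, Pearson r was -0.12 and Spearman rho was -0.23. With the 4 transfer libraries included, r was 0.64 and rho 0.51, and those 4 libraries are high for both RNAs.

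Of the 5 genes closest to Neat1 in pattern, 3 were immediate early genes, which T cells switch on soon after a receptor signal, stress or tissue dissociation. Over the 18 diet libraries and 6882 genes with a mean of at least 20 CPM, the genes most like Neat1 by Pearson r of log2 CPM were Fos (0.93), Jun (0.91) and Klf6 (0.91), then Serinc3 (0.90) and Mfge8 (0.89). Fos and Jun form AP-1, and Klf6 is a zinc finger transcription factor. These values are a description, and the libraries share groups and depth. After group means were taken out, r fell to 0.59 for Fos, 0.69 for Jun and 0.59 for Klf6, while it was 0.85 for Serinc3, which codes for a membrane protein.

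Fos ran from 815 ± 87.6 CPM in 16-week KO to 4061 ± 466 in lean KO (SD, n = 3) and 4447 ± 1191 in transfer KO (n = 2). Lean WT had 2030 ± 902 CPM of Fos. Jun ran from 235 ± 69.6 CPM in 16-week KO to 836.5 ± 172 in lean KO and 878 ± 169 in transfer KO. Fos and Jun shared the highest and lowest diet groups of Neat1. Both were named for their likeness to Neat1 over these same libraries, so this is no separate result.

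Malat1 had other neighbours. Its closest patterns were those of Rab18 (0.80), a small GTPase of lipid droplets and the endoplasmic reticulum, Smpd5 (0.75), Ier3ip1 (0.75), Smpd1 (0.74), the acid sphingomyelinase, and Nmt2 (0.72), an N-myristoyltransferase. With group means taken out these stood at 0.71, 0.66, 0.67, 0.74 and 0.75. None of the 5 is in the immediate early list. That list has 22 members against 6882 genes compared, so none among 5 is the usual outcome.

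The list of 22 immediate early genes was counted in each comparison. In KO at 16 weeks against lean diet, 14 of 22 fell and 0 rose, with a median log2 fold change of -1.16 against 0.00 over all genes tested, where 3.59% fell. Those with the smallest p were Fosb (-2.45 ± 0.23, edgeR adjusted p = 4.91e-06), Egr1 (-2.80 ± 0.27, 5.15e-06), Fos (-2.32 ± 0.23, 6.13e-06), Jun (-1.84 ± 0.24, 8.95e-05), Klf6 (-1.53 ± 0.20, 0.00012) and Dusp1 (-1.22 ± 0.16, 0.000134), a phosphatase that turns off MAP kinases. The number that fell stayed between 12 and 16 under 15 other settings, which include each library of these groups left out in turn, and 2 members rose without the filter on low counts.

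Against 4 weeks, a comparison with the same 16-week KO libraries, 6 of the 22 fell and 0 rose, with a median of -0.58, where 1.25% of all genes fell. They were Fosb, Egr1, Fos, Zfp36, Ier2 and Atf3, between -1.24 for Fos and -1.97 for Atf3. The count was 2 without 16-week KO replicate 1, 11 with only these groups in the fit and 14 without the filter on low counts. At 4 weeks against lean diet in KO, 0 passed with edgeR, 10 had an unadjusted p under 0.05 and DESeq2 called 5. There 19 of 22 had negative values, with a median of -0.52. In WT at 16 weeks against lean diet, Fosb fell (-1.31 ± 0.22, edgeR adjusted p = 0.0181), where 0.0598% of all genes fell, and the list median was -0.27. That call was lost without lean WT replicate 1 or 3, without 16-week WT replicate 1 or 3, and with only these groups in the fit, while without the filter 7 fell and 2 rose. In KO against WT on lean diet, 0 passed with edgeR, 11 had an unadjusted p under 0.05 and DESeq2 called 3, while 21 of 22 values were positive and the median was 0.44. At 16 weeks the direction was the other way: 20 of 22 values were negative, the median was -0.48, and 12 had an unadjusted p under 0.05, with 0 called by edgeR or DESeq2. For the interaction at 16 weeks 21 of 22 were negative and the median was -0.94, with 0 called by edgeR, 15 at an unadjusted p under 0.05 and 4 called by DESeq2. Other settings called between 0 and 15 members lower for that interaction. In KO against WT they called between 0 and 10 higher on lean diet and between 0 and 9 lower at 16 weeks. In KO at 4 weeks against lean diet they called between 0 and 10 lower. After transfer 0 passed (3 at an unadjusted p under 0.05, 2 by DESeq2), and the median was 0.11, or -0.01 without WT replicate 1 or without KO replicate 2.

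Summed over the list, the lean KO libraries had 33301 ± 968 CPM of immediate early transcripts and the lean WT libraries 22642 ± 5785 (SD, n = 3). The sums were 21159 ± 1804 in WT and 23571 ± 2526 in KO at 4 weeks, 18588 ± 1304 and 14665.5 ± 1375 at 16 weeks, and 41271 ± 6368 and 43161 ± 4734 after transfer (n = 2). The highest and the lowest diet groups of this sum, lean KO and 16-week KO, were also those of Neat1. The sum includes Fos, Jun and Klf6, which were named for their likeness to Neat1 over these same libraries, so this is no separate result. Whether the immediate early response has a part in the Neat1 values was not tested.

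**Figure D4:**
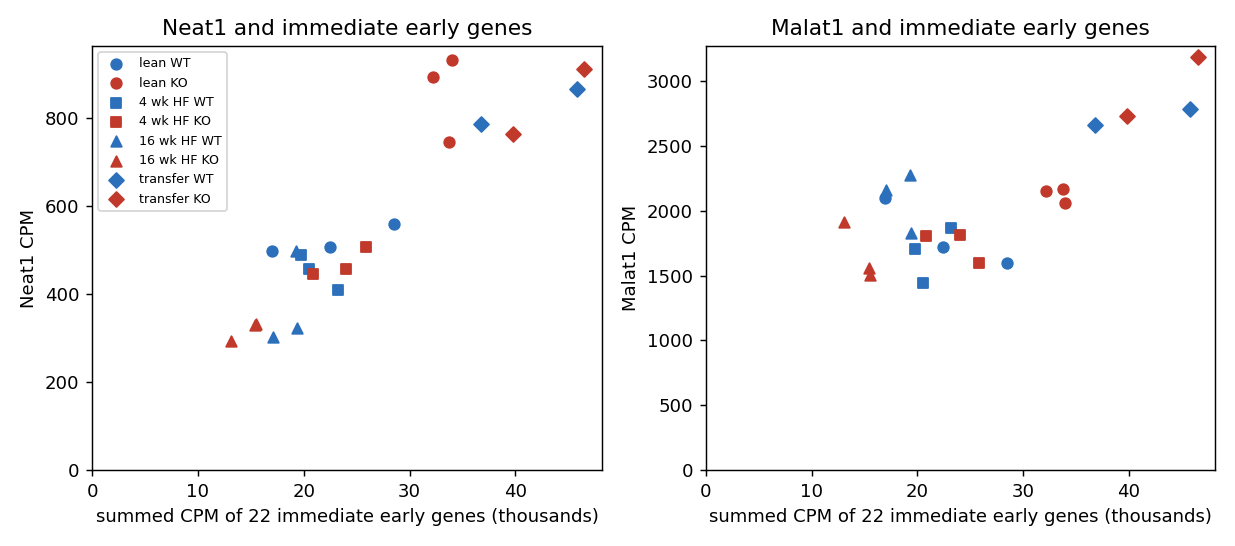
Neat1 (left) and Malat1 (right) in CPM against the summed CPM of 22 immediate early genes, 1 point per library; colour gives the genotype (WT blue, KO red) and the marker shape the diet or transfer group. The lean KO libraries are high in Neat1 and in the sum and the 16-week KO libraries low in both, whereas lean WT replicate 2 has 496 CPM of Neat1 at a sum of 16956 CPM, and the 16-week WT libraries have high Malat1 (1832 to 2277 CPM) at low sums.

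Targets of p53, hypoxia response genes and heat shock genes were counted in the same way, since p53, hypoxia factors and stress are known to induce NEAT1. Of 14 p53 targets tested, 4 fell in KO at 16 weeks against lean diet, where 3.59% of all genes fell: Cdkn1a (-1.42 ± 0.20, edgeR adjusted p = 0.000178), the cell cycle inhibitor p21, Btg2 (-0.99 ± 0.14, 0.000243), Pmaip1 (-0.94 ± 0.23, 0.0176) and Bax (-0.54 ± 0.15, 0.0314), of which the last 2 promote apoptosis. The list median was -0.48. Cdkn1a and Btg2 also fell against 4 weeks (-1.21 ± 0.19 and -0.59 ± 0.14), where 1.25% of all genes fell. The count against lean diet was 2 without lean KO replicate 1 and also without 16-week KO replicate 3, and the count against 4 weeks was 1 without either 4-week KO replicate 1 or 3, or 16-week KO replicate 1 or 2. After transfer Btg2 was lower in KO than in WT by -1.37 ± 0.14 (edgeR adjusted p = 0.00462), in a comparison that called 0.171% of genes. In the other 10 comparisons 0 passed with edgeR, at most 4 had an unadjusted p under 0.05, and DESeq2 called at most 2.

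Hypoxia response genes split. Of 13 tested, Hif1a (0.97 ± 0.16, edgeR adjusted p = 0.000894) and Epas1 (3.93 ± 0.83, 0.00714), which code for the HIF alpha subunits, rose in KO at 16 weeks against lean diet, which called 5.95% of all genes. Epas1 is also known as an endothelial gene, and the endothelial marker sum was higher in that group too; its part in the Epas1 value was not tested. Lower were 3 members, the HIF targets Egln3 (-1.87 ± 0.44), Ndrg1 (-1.34 ± 0.24) and Ero1l (-1.13 ± 0.28), and the list median was -0.05. Without 16-week KO replicate 3, 1 of the 3 remained called. Against 4 weeks Hif1a rose (0.64 ± 0.16, adjusted p = 0.0417) and the same 3 fell, where 1.64% of all genes were called, and leaving out any of the 6 libraries lost at least 1 of these 4 calls. Heat shock genes, 13 tested in the diet libraries and 14 after transfer, had 0 past the edgeR threshold in all 13 comparisons, with at most 5 at an unadjusted p under 0.05 and at most 1 called by DESeq2. In KO at 16 weeks against lean diet, 5 heat shock genes were called lower without the filter on low counts, 2 with only these groups, 2 without lean KO replicate 2 and 1 without lean KO replicate 3. In KO at 4 weeks against lean diet 3 were called lower without the filter. Lean KO replicate 1, which had the highest Neat1 value, summed to 8999 CPM of heat shock transcripts, against 5855 and 6006 in the other lean KO libraries. Its part in the Neat1 value was not tested.

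The protein partners of these RNAs were counted next. Of 24 paraspeckle protein genes, Hnrnpr alone rose in KO at 16 weeks against lean diet (0.41 ± 0.11, edgeR adjusted p = 0.0301), with a list median of 0.01, a call that was lost when any 1 of the 6 libraries was left out. A share of 1 in 24 is no larger than the 5.95% of all genes called there. In the other 12 comparisons 0 passed, with at most 2 at an unadjusted p under 0.05 and 0 called by DESeq2. The essential members had group means from 41.0 to 85.1 CPM for Sfpq, from 264 to 314 CPM for Nono and from 34.6 to 51.9 CPM for Pspc1. At 16 weeks against lean diet in KO they stood at -0.49 ± 0.26, 0.01 ± 0.11 and -0.08 ± 0.20, with adjusted p of 0.321, 0.975 and 0.877. Of 24 nuclear speckle and SR protein genes, and of 12 genes of RNase P, RNase Z and the triple helix, 0 passed with edgeR or DESeq2 in any of the 13 comparisons, and at most 4 and 3 had an unadjusted p under 0.05.

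**Figure D5:**
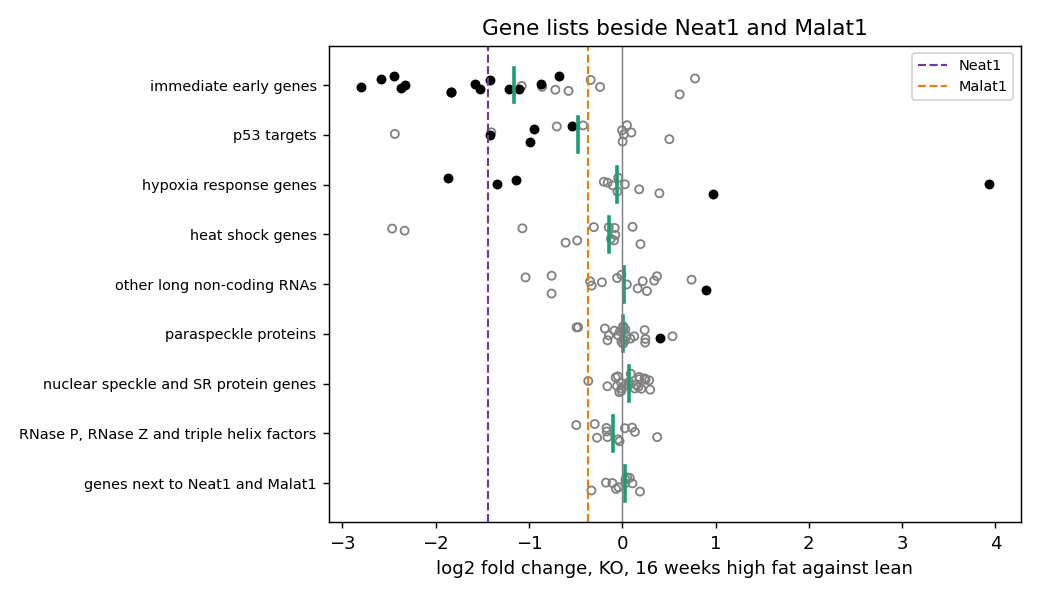
Log2 fold changes in KO at 16 weeks of high fat against lean diet for the members of 9 gene lists; filled points passed an edgeR adjusted p of 0.05, green bars are list medians, and dashed lines are Neat1 (-1.44, purple) and Malat1 (-0.37, orange). The immediate early list has a median of -1.16, while the paraspeckle protein list has a median of 0.01.

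Other long non-coding RNAs were taken as a list. Of 16 tested in the diet libraries, Tug1, another nuclear-enriched transcript, rose in KO at 16 weeks against lean diet (0.90 ± 0.21, edgeR adjusted p = 0.0127). A share of 1 in 16 is near the 5.95% of all genes called there. The call was lost without lean KO replicate 3, and the list median in that comparison was 0.02. In the other 12 comparisons 0 passed with edgeR or DESeq2, with at most 3 at an unadjusted p under 0.05. Genes next to the pair on chromosome 19 were also counted, 11 tested in the diet libraries and 12 after transfer, and 0 passed with edgeR or DESeq2 in any comparison, with at most 3 at an unadjusted p under 0.05. In KO at 16 weeks against lean diet the neighbour Frmd8 stood at 0.11 ± 0.11 (edgeR adjusted p = 0.666). Its group means were 302 to 419 CPM.

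The clock list gave the genotype check beside these values. In KO against WT averaged over diets, Npas2 and Cry1 rose and Nr1d1, Nr1d2 and Per3 fell. These were 5 of 13 members, where 0.18% of all genes were called. Malat1 did not pass there, and Neat1 was not tested. The number of genes detected also differed between groups. Its mean was 19113 in lean KO and 22291 in 16-week KO, the diet groups with the highest and the lowest Neat1. The other diet means were 19487 in lean WT, 19117 in 4-week WT, 21177 in 4-week KO and 21771 in 16-week WT. Neat1 was at 451 CPM in 4-week WT and at 469 CPM in 4-week KO. After transfer the means of genes detected were 19734.5 in WT and 19998.5 in KO. The part of the number of genes detected in the Neat1 values was not tested.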

How the data were processed

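Polyadenylated RNA of 22 libraries was primed with anchored oligo(dT), amplified and tagmented (Nextera XT), and read as pairs of 38 bases, per the labels' protocols. This kit does not mark strand. Per the submitters' processing notes, alignment to mm10 used STAR 2.7.3a and featureCounts assigned the reads. No featureCounts version, annotation or strand option is given in the sources used here. Values were deposited as whole-number counts per gene symbol.

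TMM-scaled counts went into the edgeR 4.0.16 quasi-likelihood F test (R 4.3.3) after its filter on low counts (minimum count 10), with Benjamini-Hochberg adjustment over all genes and a threshold of 0.05. The 18 diet libraries shared 1 fit, and the 4 transfer libraries another. Levels are CPM with TMM over 22 libraries. Log2 fold changes carry the SE, and 95% intervals use the moderated degrees of freedom. PCR copies are counted apart, so counting error is a lower limit. The method was tested on simulated data. The averages over diets of Neat1 and of its ratio to Malat1, and the correlation of the RNAs, were planned as tests. They are given as descriptions, since they hold libraries that chose Neat1.

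Neat1, Malat1 and the 10 gene lists were chosen with earlier results of these data known. Named list members are those past the threshold, up to 6 per list and comparison by smallest p. Genes most like each RNA are the 5 with the highest Pearson r. Alternatives were other scalings (RLE, upper quartile, library totals, mitochondrial genes and both RNAs left out), no filter, DESeq2 1.42.0, other sets of libraries in the fit, a replicate block and each library left out. List counts under these settings were added after seeing the data.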

Additional observations from a re-analysis of the deposited data

How the results depend on the processing

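The refits of tested results of Neat1 and Malat1 were counted together with those of their correlation, which was planned as a test. Of these, 212 kept direction and side of the threshold, 14 changed sign and 7 passed it. Most sign changes came when 1 library was left out. Without 1 library at a time, Malat1 ranged from -0.20 to 0.0051 in WT at 4 weeks against lean diet, and in KO against WT from -0.031 to 0.15 at 4 weeks and from -0.049 to 0.026 on average over diets (0.019, 0.0085, 0.0079, 0.0044 and 0.0065 in the other fits above 0). Neat1 in KO against WT ranged from -0.37 to 0.028 at 16 weeks. After transfer Neat1 ranged from -0.12 to 0.12 (-0.061 without WT replicate 1) and Malat1 from -0.00025 to 0.21. With library totals Malat1 in KO at 16 against 4 weeks was 0.0065, and Neat1 after transfer was -0.0041. That scaling moved the median of all genes by 0.11 in KO at 16 weeks against lean diet. The cause of these was not tested.

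Neat1 in WT at 16 weeks against lean diet passed without the filter (-0.47, adjusted p = 0.0459) and without 16-week WT replicate 3, and its value ranged from -0.74 to -0.34 without 1 library. Malat1 in KO at 16 weeks against lean diet passed without the filter (-0.36, 0.0108) and with only these groups (-0.36, 0.0391), and ranged from -0.48 to -0.29 without 1 library, passing without 16-week KO replicate 1. Malat1 in KO against WT at 16 weeks passed without the filter (-0.35, 0.0318). The correlation of the RNAs over all 22 libraries (0.64) is counted among the 7 refits that passed, but it is read as a description. Described values moved by less than their spread in 199 refits, in which Neat1 in KO against WT at 4 weeks reached -0.0066. In 1 refit the value moved by more. The Neat1 interaction at 16 weeks was -0.69 without 16-week WT replicate 3, against -0.96 ± 0.21 (SE) in the main fit.

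Counts of genes called depended on the filter: without it 40, 178 and 96 were called in WT (4 weeks, 16 weeks and 16 against 4), 112, 1085 and 638 in KO, 135, 75, 428 and 273 in KO against WT (lean, 4 weeks, 16 weeks and average), 22 and 258 for the interactions and 102 after transfer. DESeq2 called 82 in WT at 16 weeks, 346 in KO at 16 against 4 weeks, 24, 47 and 38 in KO against WT on lean diet, at 16 weeks and on average, and 61 after transfer. With only the groups compared the counts were 1 in WT at 16 weeks, 15 and 376 in KO at 4 weeks and at 16 against 4, and 10 and 50 in KO against WT on lean diet and at 16 weeks. All libraries in 1 fit gave 37 after transfer. Without 1 library, the counts ran from 3 to 28 in WT at 16 weeks against lean diet, from 373 to 514 and from 32 to 174 in KO at 16 weeks against lean diet and against 4 weeks, from 4 to 11, 4 to 6 and 4 to 35 in KO against WT on lean diet, at 4 and at 16 weeks, and from 0 to 36 for the interaction at 16 weeks.

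The replicate block changed no call of Neat1 or Malat1. It moved the genes called from 8 to 5 in KO against WT at 4 weeks and from 20 to 40 after transfer, and the ratio of the RNAs, KO against WT, was 0.20 with and without it. Same-numbered WT and KO libraries correlated between -0.042 and 0.10 in their deviations from group means, so the numbers were not taken as pairs, and not every library correlated best with its own number.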
